A study of Homo sapiens with 3 samples.

Results

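Transfer RNA genes of the nuclear chromosomes were examined in peak lists of RNA bound by HaloTag fusions of RPL22 and RPL22L1. A gene entered the set when RefSeq listed it as a tRNA gene on chromosomes 1 to 22 or X and at least 1 peak summit, from either list, lay between its annotated start and end. Of 443 annotated nuclear tRNA genes, 133 met the rule, or 30.02% (exact Clopper-Pearson 95% interval 25.8 to 34.5%). Summit positions of both lists therefore chose the genes, and the counts of genes with a summit are given as a description, with no test. The intervals in the text cover counting error only.

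The cells were HCT116, an established human colorectal carcinoma line of the colon, grown in McCoy's 5a medium with fetal bovine serum, and the assay was GoldCLIP-seq, in which the HaloTag holds a protein with its bound RNA covalently on beads. There was 1 library for each genotype: HaloTag alone, RPL22-HaloTag and RPL22L1-HaloTag. How the fusions were introduced, and whether each line is a clone, is not given in the sources used here. The HaloTag library was not analysed here, and the values below have no background from it beside them. With 1 library for each fusion there is no replicate error and no test between them, and every difference is between these 2 libraries.

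Transfer RNAs are short RNAs that read codons with their anticodon and carry the matching amino acid to the ribosome. RNA polymerase III transcribes their genes and stops at a run of T, after which enzymes trim both ends, remove an intron where there is one and add the bases CCA to the 3′ end. RPL22 and its paralog RPL22L1 are proteins of the large ribosomal subunit and also bind RNA outside the ribosome. A symbol such as TRN-GTT4-1 gives the amino acid in its one-letter code (N, asparagine), the DNA letters of the anticodon, a family number shared by genes of the same sequence, and the copy.

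The sequences of a few genes show where the summits lay, inside the gene and just past its 3′ end. RefSeq promoter windows of neighbouring genes (GRCh38.p14) covered at least part of 27 tRNA genes, and the strand of 19 could be set from the T-arm motif GTTCNANNC. Either strand was searched, and 2626 of all 35116 promoter windows of 300 bases, or 7.48%, held the motif. The 14 genes covered whole had their anticodon at bases 32 to 38, counted from the 5′ end. Capitals mark the highest summit of each list with the 2 bases on either side of it, and up to 20 bases after the gene are shown. These 4 genes belong to the set.
TRF-GAA1-5: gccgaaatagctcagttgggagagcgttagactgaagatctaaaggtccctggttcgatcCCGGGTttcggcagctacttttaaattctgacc
TRG-CCC2-2: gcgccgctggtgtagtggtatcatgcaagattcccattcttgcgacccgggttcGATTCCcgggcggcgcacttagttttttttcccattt
TRI-TAT2-2: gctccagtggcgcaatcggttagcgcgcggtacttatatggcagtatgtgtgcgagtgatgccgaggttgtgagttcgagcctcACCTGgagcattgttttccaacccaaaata
TRN-GTT4-1: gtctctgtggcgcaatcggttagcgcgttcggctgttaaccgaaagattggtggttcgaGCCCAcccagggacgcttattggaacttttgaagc

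TRF-GAA1-5 (phenylalanine) is on the minus strand, with the printed stretch at chr13:94549630-94549722, and its summits were at base 63 in the RPL22 library and base 64 in the RPL22L1 library of a gene of 73 bases. TRG-CCC2-2 (glycine), minus strand, chr16:636716-636806, had them at bases 57 and 58 of 71. TRI-TAT2-2 (isoleucine), plus strand, chr6:27020346-27020459, had a summit in the RPL22L1 library only, at base 87 of 94. TRN-GTT4-1 (asparagine), plus strand, chr1:16889677-16889770, also had one in the RPL22L1 library only, at base 62 of 74. In all 4 the capitals fall in the T arm or the last pairs of the acceptor stem, on the 3′ side of the molecule.

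Genes whose only summits lay a few bases past the 3′ end did not enter the set, although the peaks of some ranked high. The next 4 sequences show 3 of them and 1 copy without a summit.
TRT-TGT6-1: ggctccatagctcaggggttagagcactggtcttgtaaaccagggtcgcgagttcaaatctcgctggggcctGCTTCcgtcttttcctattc
TRP-TGG3-2: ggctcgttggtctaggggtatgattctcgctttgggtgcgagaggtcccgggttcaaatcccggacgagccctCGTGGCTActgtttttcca
TRL-AAG2-4: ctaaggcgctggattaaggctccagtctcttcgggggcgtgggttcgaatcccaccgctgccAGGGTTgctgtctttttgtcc
TRP-TGG3-5: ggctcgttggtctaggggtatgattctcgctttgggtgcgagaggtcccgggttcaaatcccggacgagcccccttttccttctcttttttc

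TRT-TGT6-1 (threonine), minus strand, chr5:181191667-181191758, had the highest summit of both lists 3 bases past its end. TRP-TGG3-2 (proline), plus strand, chr14:20684016-20684107, had it 4 bases past the end in the RPL22 library and 7 in the RPL22L1 library. TRL-AAG2-4 (leucine), plus strand, chr16:22297159-22297241, whose first bases lie outside the window, had it 2 and 3 bases past the end. In these 3 genes the summit lay before the first TTTT after the gene, which starts at base 10, 13 and 12 past the end. TTTT on either strand was in 25067 of the promoter windows of 300 bases, or 71.4%. The genes were searched only over up to 20 bases past the end, on their own strand. That share is therefore not a like comparison, and how often TTTT lies in so short a stretch was not measured. TRP-TGG3-5, plus strand, chr16:3188094-3188185, is the same as TRP-TGG3-2 over all 72 bases of the gene, and neither library had a summit within 20 bases of it.

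Over all 19 genes with a strand, 11 had a summit within 20 bases in at least 1 list. Each highest summit, 8 in the RPL22 library and 11 in the RPL22L1 library, lay on the 3′ side of the gene's midpoint or past its 3′ end, and 5 in each list were past the end. Among summits inside these genes, 3 of 3 in the RPL22 library (100%, interval 29.2 to 100%) and 6 of 6 in the RPL22L1 library (100%, 54.1 to 100%) were on the 3′ side. The strand of the other tRNA genes was not used here, so their summits are described by distance from the nearer gene end.

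The RPL22 list placed a summit in 109 tRNA genes, 24.6% of those annotated, and the RPL22L1 library in 102, or 23%. The same count over all 59098 genes of these chromosomes gave 35.5% and 37.1%, but most of those genes are far longer. Among 6542 other genes of at most 200 bases the shares were 6.04% and 8.36%, and among snoRNA genes, another class of short RNA, 11.6% and 15.7%. A summit in either library was found in 30% of tRNA genes, 43.5% of all genes, 11% of the other short genes and 19.1% of snoRNA genes. No tRNA gene held more than 1 summit of a list. The gene lengths ran from 70 to 108 bases, with a median of 73.0.

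Both lists marked 78 of the 133 genes, or 58.6% (49.8 to 67.1%). A further 31 had a summit in the RPL22 library only (23.3%) and 24 in the RPL22L1 library only (18%). Shared genes made up 71.6% of the RPL22 genes and 76.5% of the RPL22L1 genes. Of all genes with a summit in either library 67% were in both, with 14.6% in the RPL22 library only and 18.4% in the RPL22L1 library only. Of the other short genes 30.7% were in both, 24.1% in the RPL22 library only and 45.2% in the RPL22L1 library only. The share in both libraries was thus below that of all genes and above that of short genes and of snoRNA genes (42.8%).

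**Figure D1:**
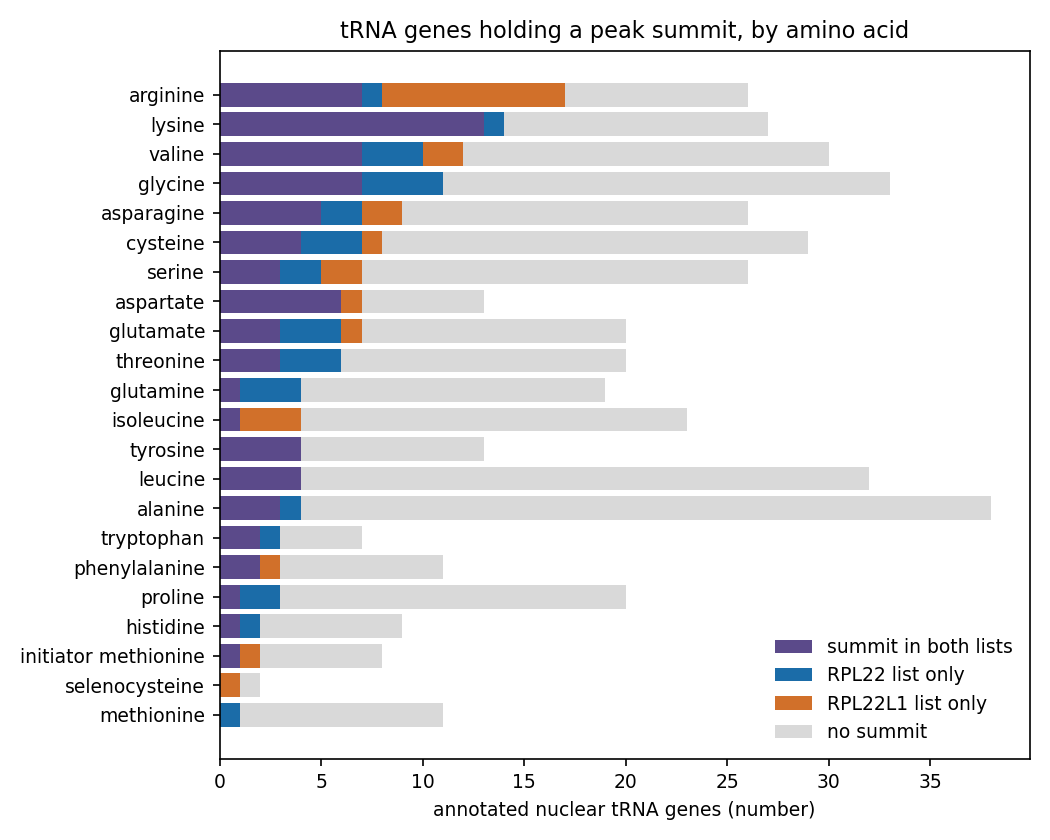
Number of annotated nuclear tRNA genes (horizontal axis) for each amino acid, divided into genes with a summit in both libraries, in the RPL22 library only, in the RPL22L1 library only and in neither. Arginine has 9 genes in the RPL22L1 library only, while 13 of 14 lysine genes with a summit are in both.

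Every one of the 22 amino acid classes, with initiator methionine and selenocysteine counted apart, had at least 1 gene with a summit. Of 49 pairs of amino acid and anticodon, 43 had such a gene, 40 in the RPL22 library and 39 in the RPL22L1 library. The 6 without a summit inside a gene were alanine CGC, isoleucine GAT, leucine AAG, leucine CAA, proline CGG and tyrosine ATA. With gene bounds widened by 20 bases, 45 pairs had a gene in the RPL22 library and 47 in the RPL22L1 library. Only isoleucine GAT and tyrosine ATA then had none in either, and all 4 proline CGG genes had a summit. By summits inside the gene, arginine had the highest share among classes, 17 of 26 genes (65.4%, 44.3 to 82.8%), followed by aspartate with 7 of 13 (53.8%, 25.1 to 80.8%) and lysine with 14 of 27 (51.9%, 31.9 to 71.3%). Alanine, with the most annotated genes, had 4 of 38 (10.5%, 2.94 to 24.8%), and leucine had 4 of 32 (12.5%, 3.51 to 29.0%). The intervals of neighbouring classes overlap, and copies of one family are not independent. Alanine and leucine also have genes in a stretch of chromosome 6 without summits, described below, among them TRA-AGC2-2 and TRL-AAG2-2.

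Arginine tRNA genes differed between the libraries by anticodon. In the RPL22 library 8 of 26 had a summit and in the RPL22L1 library 16, with 7 in both, 1 in the RPL22 library only and 9 in the RPL22L1 library only. Arginine genes were 5.87% of the annotated tRNA genes and 37.5% of those found in the RPL22L1 library only, a share that was 18.4% (9 of 49) with gene bounds widened by 20 bases. The genes of anticodon CCT were in both libraries, 4 of 4. Of the 5 genes of anticodon TCG, 0 had a summit in the RPL22 library and 4 in the RPL22L1 library. Of the 6 genes of anticodon TCT, 1 had a summit in the RPL22 library and 4 in the RPL22L1 library. The counts for these anticodons were the same in each of the 7 alternative settings of peaks and gene bounds.

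Scores per peak are the authors' own values, used here to order the peaks of a list, where rank 1 is the highest. The TCG genes stood near the top of the RPL22L1 library. TRR-TCG1-1 (chr15:89335073-89335145) had score 165330 and rank 47 of 254413 peaks, the highest of any tRNA gene in that list. TRR-TCG3-1 had rank 113, TRR-TCG2-1 rank 134 and TRR-TCG4-1 rank 170. In the RPL22 library the nearest summits were 5945, 667, 7410 and 5730 bases away, in that order. TRR-TCG5-1, the remaining TCG gene, had a summit in neither library and lies in a stretch of chromosome 6 described last. Each TCG gene is the only annotated gene of its family number, so no other annotated gene shares its family sequence, though how alike the families are was not measured.

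A cluster within the gene KCTD2 on chromosome 17 holds both kinds of arginine gene in 1280 bases. TRR-CCT1-1 (chr17:75033906-75033978) had rank 322 in the RPL22 library and rank 325 in the RPL22L1 library. TRR-CCT2-1 (chr17:75034431-75034503) had ranks 87 and 155. TRR-TCG3-1 (chr17:75035113-75035185) had no summit in the RPL22 library and rank 113 in the RPL22L1 library. The 3 neighbours thus split by anticodon, with the CCT genes in both libraries and the TCG gene in one.

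The TCT genes gave the same order of libraries with wider ranks. TRR-TCT1-1 (chr1:93847573-93847657) was in both, at rank 109 of 154000 in the RPL22 library and rank 175 in the RPL22L1 library, with its summit 11 bases from the same end. TRR-TCT2-1 (chr17:8120925-8121012) had rank 298 in the RPL22L1 library only, TRR-TCT4-1 rank 5705 and TRR-TCT3-1 rank 7116. The nearest RPL22 summits to these 3 were 577, 66308 and 2945 bases away. Of the 4 genes of anticodon CCG, TRR-CCG2-1 was in both, at ranks 111 and 165, and TRR-CCG1-3 in the RPL22L1 library only, at rank 363. Of the 7 genes of anticodon ACG, 2 had a summit in the RPL22 library and 2 in the RPL22L1 library.

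**Figure D2:**
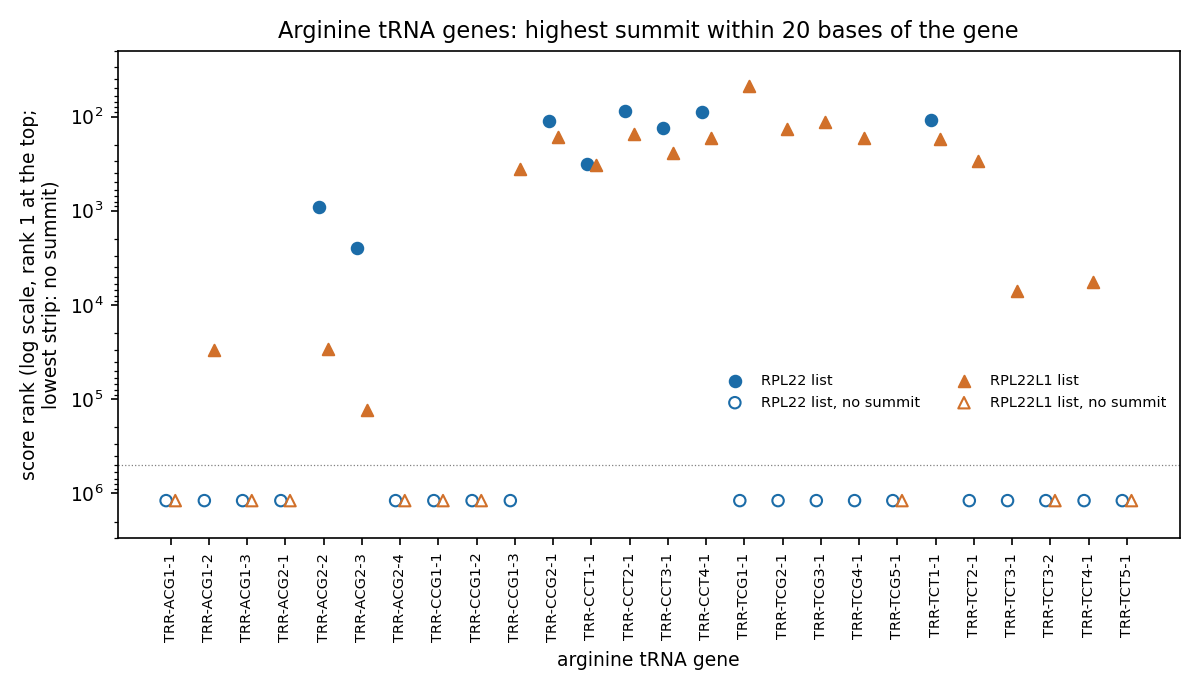
Score rank of the highest summit within 20 bases of each of the 26 arginine tRNA genes, on a log scale with rank 1 at the top. Filled marks are genes with a summit (circles RPL22, triangles RPL22L1) and open marks in the lowest strip are genes without one. Of the 5 TCG genes, 4 have triangles at ranks 47 to 170 and open circles and TRR-TCG5-1 has both marks open, while the CCT genes have both marks filled.

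Lysine tRNA genes were mostly shared, with 13 of the 14 genes in both libraries and 1, TRK-TTT3-1, in the RPL22 library only at rank 854. TRK-TTT6-1 (chr6:27334990-27335062) was the highest of them, with score 25701 and rank 89 in the RPL22 library and score 73042 and rank 71 in the RPL22L1 library. TRK-TTT3-2 (chr1:204507030-204507102) followed with ranks 99 and 147. All 6 lysine CTT genes with a summit were in both libraries. The least high lysine gene in the RPL22 library was TRK-TTT2-1, at rank 2126, with rank 8091 in the RPL22L1 library.

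Other classes held few genes in one list only. In the RPL22 library only there were 4 glycine genes and 3 each of glutamate, threonine, valine, glutamine and cysteine. The 3 glutamine genes all had anticodon CTG, an anticodon with 0 genes in the RPL22L1 library by the rule. TRQ-CTG5-1 was at rank 176, TRQ-CTG6-1 at rank 285 and TRQ-CTG2-1 at rank 305 in the RPL22 library, with the nearest RPL22L1 summit 56, 87 and 9 bases outside the gene. After arginine, isoleucine had the most genes in the RPL22L1 library only, with 3.

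Initiator methionine tRNA, which starts translation, is encoded by 8 annotated copies of 1 family, so reads from within the gene cannot be told apart between copies. By the rule TRX-CAT1-8 was in both libraries, at ranks 208 and 216, and TRX-CAT1-7 in the RPL22L1 library only, at rank 323. Within 20 bases outside the gene, TRX-CAT1-2, TRX-CAT1-4 and TRX-CAT1-6 had summits in both libraries and TRX-CAT1-5 in the RPL22L1 library. Of the selenocysteine genes, whose tRNA reads a stop codon, TRU-TCA1-1 had rank 18780 in the RPL22L1 library only. TRU-TCA2-1 had a summit in neither library.

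The summits in tRNA genes ranked high in their lists, as did those in snoRNA genes. In the RPL22 library the median rank was 515.0 of 154000, with quartiles at 247.0 and 3929, and 71 of 109 genes (65.1%, 55.4 to 74.0%) were in the top 1% of the list. In the RPL22L1 library the median rank was 867.5 of 254413, and 64 of 102 genes (62.7%, 52.6 to 72.1%) were in the top 1%. By construction 1% of all peaks lie there. The median score was 1495 inside tRNA genes and 1804 inside snoRNA genes in the RPL22 library, and 1691 and 3055 in the RPL22L1 library, so high scores were not particular to tRNA genes. Expressed as a percentile of the list, where 100 is the highest peak, the medians were 99.7 and 99.7. A score of 10000 or more was given to 13 genes in the RPL22 library and 17 in the RPL22L1 library.

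The peaks were also wider and less uniform than most. Their median width was 48.0 and 47.5 bases, against 30 bases in each whole list. A peak of 30 bases with its summit offset at 15, called flat here, was the form of 64.9% of the RPL22 peaks and 77.9% of the RPL22L1 peaks. It was found in 1 tRNA gene of the RPL22 library (0.917%) and 5 of the RPL22L1 library (4.90%).

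The tRNA genes with the highest summits were largely shared. TRN-GTT2-7 (chr1:145287766-145287839) had the highest score of the RPL22 library among them, 32321, at rank 75, and score 33091 at rank 118 in the RPL22L1 library. TRY-GTA2-1, a tyrosine gene within AGBL5, had ranks 107 and 135, and TRE-TTC2-1, a glutamate gene, ranks 108 and 232. TRR-CCT4-1 had ranks 90 and 167, and TRV-AAC2-1, a valine gene, ranks 122 and 266. All 10 of the highest in the RPL22 library were in the RPL22L1 library too. Of the 10 highest in the RPL22L1 library, the 3 absent from the RPL22 library were TRR-TCG1-1, TRR-TCG3-1 and TRR-TCG2-1. In the RPL22 library only, the highest were TRT-TGT3-1, a threonine gene at rank 152, and then TRQ-CTG5-1 and TRT-TGT2-1, at ranks 176 and 219.

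Percentiles of the 78 shared genes correlated across genes at Spearman's rho 0.908, a description over genes of these 2 libraries that share sequence families. The largest differences, with the higher percentile in the RPL22 library, rested on low-scoring RPL22L1 summits. TRP-AGG2-1, a proline gene, was at percentile 97.4 in the RPL22 library and 8.36 in the RPL22L1 library. TRC-GCA20-1 was at 97.1 and 26.8 and TRE-TTC2-2 at 98.2 and 41.1. In the other direction TRD-GTC2-10 was at 87.9 and 97.5 and TRV-TAC4-1 at 90.2 and 99.2. Their RPL22 scores, 103 and 126, were above the median of 33 of that list. The gaps were wider in the first direction. The RPL22L1 summits inside TRP-AGG2-1, TRC-GCA20-1 and TRE-TTC2-2 were lost when a score of at least 100, or of at least the median of their list, was required. TRP-AGG2-1 also had a higher summit just outside the gene, 2 bases away at rank 394 in the RPL22 library and 13 bases away at rank 631 in the RPL22L1 library. TRR-ACG2-3 and TRN-GTT3-1 were next in the first direction, and a valine gene listed as TRNAV-CAC, TRV-CAC5-1 and TRG-CCC1-2 in the second.

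**Figure D3:**
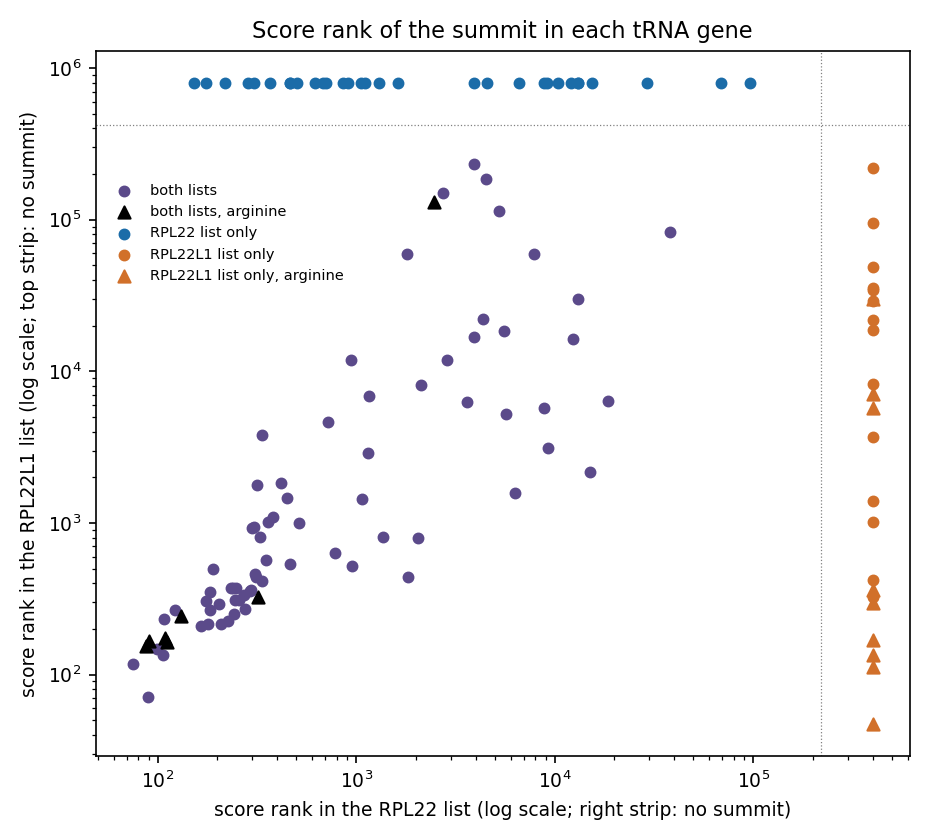
Score rank of the summit in each of the 133 tRNA genes in the RPL22 library (horizontal) and the RPL22L1 library (vertical), both on log scales. Genes in one list only lie in the top and right strips, and triangles are arginine genes. The highest genes of both lists lie close together at the lower left, and arginine genes lead the right strip.

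Inside the genes summits were fewest in the middle. When each gene was divided by coordinate into 3 stretches of equal length, 48, 13 and 48 RPL22 summits and 43, 14 and 45 RPL22L1 summits fell in the low, middle and high stretch. The middle stretch thus held 11.9% (6.51 to 19.5%) and 13.7% (7.71 to 21.96%). Bases 8 to 20 from the nearer end held 76 RPL22 summits (69.7%) and 69 RPL22L1 summits (67.6%), and make up 34.6% of all tRNA gene bases. In a tRNA read from its 3′ end that window overlaps the T arm, and read from its 5′ end the D arm, and the genes of known strand had their summits on the T-arm side.

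In the 78 shared genes the summits of the libraries were close. The median shift was 2.0 bases, 17 genes had the summit at the same base and 52 (66.7%) within 3 bases. In 11 genes it moved by 20 bases or more, with the largest move, 61.0 bases, in TRD-GTC2-7. The peaks of all 78 pairs overlapped, and 61 by at least 50% of the wider peak.

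Summits were most frequent just outside the annotated ends. Per kb searched, the RPL22 library had 3.28 summits inside tRNA genes, 5.70 at 1 to 20 bases outside and 0.263 at 21 to 50 bases outside. The RPL22L1 list had 3.07, 7.51 and 0.602. Around snoRNA genes the summits stayed inside, with 1.08 per kb inside and 0.0209 at 1 to 20 bases outside in the RPL22 library, and 1.44 and 0.0836 in the RPL22L1 library.

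With the gene bounds widened by 20 bases, 206 tRNA genes (46.5%) had a summit in the RPL22 library and 234 (52.8%) in the RPL22L1 library. The other short genes reached 6.47% and 9.23% with the same widening, and all genes 35.8% and 37.6%. A summit in either library was within 20 bases of 57.6% of tRNA genes, 12.1% of the other short genes and 43.9% of all genes. Of the genes in either library, 255 in all, 185 (72.5%, 66.6 to 77.9%) were then in both, 21 (8.24%) in the RPL22 library only and 49 (19.2%) in the RPL22L1 library only. The same split was 66.9%, 14.5% and 18.6% over all genes and 29.8%, 23.6% and 46.5% over the other short genes. The widening brought in 122 genes that had no summit inside, and 188 had none even then. The highest summit lay outside the gene in 101 of the 206 (49.0%) and 133 of the 234 (56.8%), and by 1 to 3 bases in 71 and 65. It lay at the same end in both libraries in 170 of the 185 genes (91.9%).

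**Figure D4:**
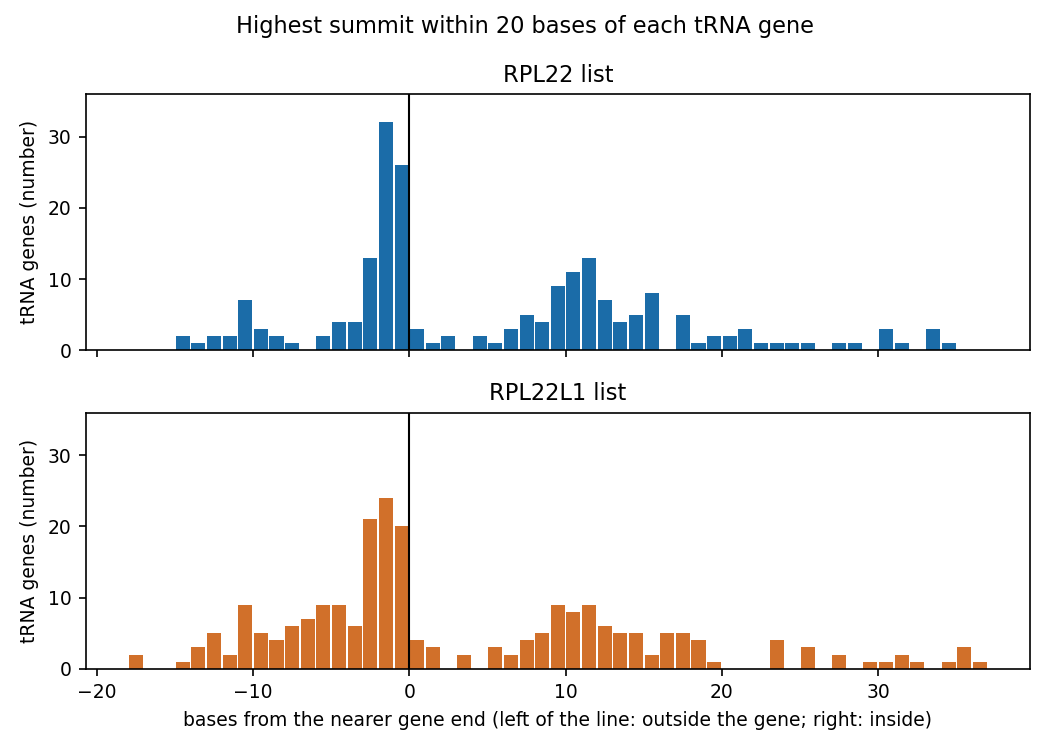
Distance in bases of the highest summit from the nearer end of each tRNA gene (horizontal axis, negative outside the gene and positive inside) against the number of genes, for 206 genes in the RPL22 library (upper panel) and 234 in the RPL22L1 library (lower panel). Both panels show a group at 1 to 3 bases outside and another near 8 to 20 bases inside, with few in the last bases before the end.

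The values at the threshold of the rule show that it cut through this group. Just inside were TRN-GTT2-1 (RPL22L1 score 156, summit on the last base), TRP-TGG3-4 (RPL22 score 28, on the first base) and TRV-AAC4-1 (RPL22L1 score 328, on the first base). Just outside, 31 genes had a summit 1 base beyond an end, among them TRV-CAC4-1 (RPL22L1 score 5167), TRV-CAC1-7 (RPL22L1 score 4127) and TRN-GTT8-1 (RPL22 score 16019 and RPL22L1 score 7865). Within each library the scores just outside were the higher ones in these 6 examples. Summits outside ranked at a median of 319.0 in the RPL22 library and 444.0 in the RPL22L1 library, against 465.0 and 808.0 for those inside. The highest tRNA summit of the RPL22 library, rank 19 with score 162304, lay 1 base outside TRL-CAG2-2 (chr16:57300480-57300562), which had rank 114 in the RPL22L1 library. TRT-TGT6-1 had ranks 23 and 91, and TRP-TGG3-2 ranks 76 and 92.

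Whether the highest summit lay inside or outside differed widely among amino acids. Arginine genes had it inside in 8 of 8 cases in the RPL22 library and 16 of 17 in the RPL22L1 library, and lysine genes in 14 of 18 and 13 of 18. Aspartate genes had it inside in 6 of 8 and 7 of 8. Proline genes had it inside in 2 of 15 in the RPL22 library and 0 of 16 in the RPL22L1 library. Serine genes had it inside in 4 of 16 and 5 of 18, and leucine genes in 4 of 14 and 4 of 16. The classes that had few genes by the rule were thus not all poor in summits: 3 of 20 proline genes met the rule, and 18 of 20 had a summit within 20 bases in at least 1 list. Arginine, first by the rule, had 65.4% within the wider bounds too, below proline (90%), histidine (77.8%), initiator methionine (75%), valine (73.3%), serine (73.1%), lysine (66.7%) and cysteine (65.5%). Alanine had few by either measure, 4 of 38 by the rule and 8 of 38 with the wider bounds. Anticodon AGC is that of 25 of the 38 annotated alanine genes, and of 22 of the 30 without a summit within 20 bases. TRA-AGC2-2, among them, lies in a stretch of chromosome 6 without summits, described below, and how many others lie there was not counted. The part of that stretch in the low alanine share was not tested.

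**Figure D5:**
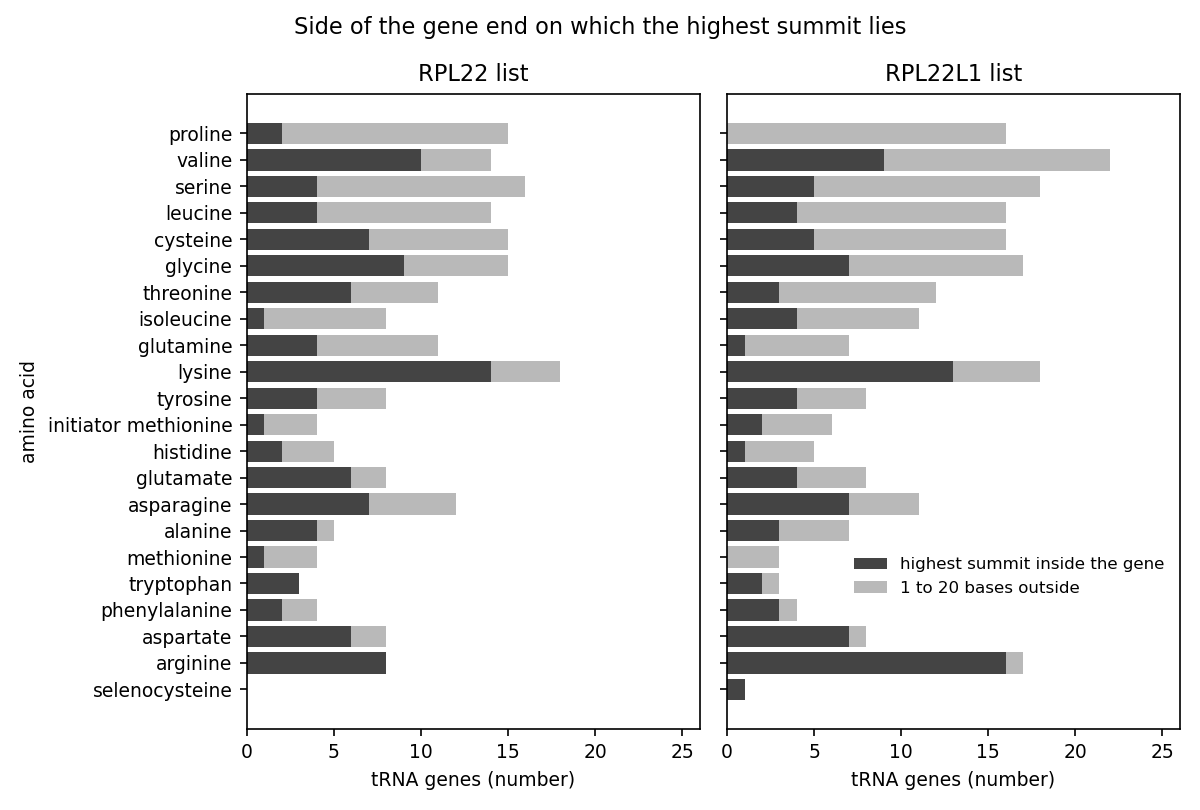
Number of tRNA genes (horizontal axis) whose highest summit within 20 bases lies inside the gene (dark) or 1 to 20 bases outside it (light), for each amino acid in the RPL22 library (left) and the RPL22L1 library (right). Proline, serine and leucine bars are mostly light, and arginine and lysine bars mostly dark.

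The proline genes show the pattern in single values. TRP-CGG1-1 (chr1:167714725-167714796) had its summit 2 bases outside in both libraries, at ranks 104 and 128. TRP-TGG2-1 had it 1 base outside at rank 155 in the RPL22 library and 3 bases outside at rank 223 in the RPL22L1 library. TRP-AGG2-6 had it 1 base outside in both, at ranks 345 and 1094. Proline TGG is also the anticodon of TRP-TGG3-2 and TRP-TGG3-5 printed above, which share their sequence and differ in having summits.

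The wider bounds changed which genes were in one library only. Of the 31 genes with a summit in the RPL22 library only, 20 had an RPL22L1 summit within 20 bases and 11 stayed in the RPL22 library only. TRT-TGT3-1, the highest of the 31, had an RPL22L1 summit 1 base outside the gene, at rank 258. TRQ-CTG2-1 had one 9 bases outside, at rank 2458. Of the 24 genes in the RPL22L1 library only, 3 had an RPL22 summit within 20 bases and 21 stayed, and the nearest RPL22 summit to the 24 was at a median of 4448 bases. Arginine genes still numbered 9 in the RPL22L1 library only, with 0 in the RPL22 library only. Valine genes, 3 and 2 by the rule, became 0 in the RPL22 library only and 8 in the RPL22L1 library only. For glutamine CTG, 4 genes were in both and 3 in the RPL22 library only.

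Genes with a family number shared by many copies are those where reads cannot be placed with certainty, and how such reads were treated is not given in the sources used here. By the rule 78 of 201 genes of families with 1 copy had a summit (38.8%, 32.03 to 45.9%), against 20 of 77 with 2 to 3 copies (25.97%, 16.6 to 37.2%) and 33 of 145 with 4 or more (22.8%, 16.2 to 30.5%). With the wider bounds the shares were 62.2% (55.1 to 68.9%), 50.6% (39.0 to 62.2%) and 61.4% (52.9 to 69.3%). The lower share of large families inside the gene was thus not seen within 20 bases. In the largest family, aspartate TRD-GTC2 with 11 copies, 5 had a summit in both libraries and none in one list only. Which copy of a family gave the reads was not tested.

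The genes that make, process and charge tRNA were counted from lists chosen by function. They are protein-coding but for RPPH1, the RNA of RNase P, in the list of end processing and splicing. A summit lay in 22 of 24 genes of cytosolic aminoacyl-tRNA synthetases and their scaffold proteins in either library, in 23 and 22 of 25 genes of end processing and splicing, in 32 and 33 of 33 genes of modification, and in 19 and 20 of 21 genes of RNA polymerase III and its factors (RPL22 list first). Over all protein-coding genes, which leave out RPPH1, the shares were 68.5% and 70%, and longer genes hold more summits. EEF1E1, a scaffold protein of the synthetase complex, had the highest peak of these genes, at rank 54 in the RPL22 library and rank 80 in the RPL22L1 library. Its summit also lay in SCARNA27, a small RNA gene within it. IARS1, the isoleucine synthetase, had rank 537 in the RPL22L1 library, with the summit also in SNORA84. The highest summits in no other annotated gene were in NARS1, the asparagine synthetase, at rank 635 and POP1, of RNase P, at rank 797 in the RPL22 library. In the RPL22L1 library they were in DDX1, of the tRNA ligase complex, at rank 892 and TRMT11, which methylates tRNA, at rank 1210.

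The genes were not spread evenly over the genome. Of 22 chromosomes with an annotated tRNA gene, 17 had 1 with a summit. On chromosome 12 it was 8 of 9, all in both libraries, and on chromosome 5 it was 1 of 18, although 11 of the 18 had a summit within 20 bases. Chromosome 6, with 155 annotated tRNA genes, had 35 with a summit. On that chromosome neither library had a summit between positions 28489006 and 29869447, a stretch of 1380 kb that holds 40 tRNA genes. Outside the stretch 35 of 115 tRNA genes of chromosome 6 had a summit, or 30.4%. The share over all tRNA genes, 30%, still counts the 40 genes of the stretch and is not a like comparison. The lists had 23 and 18 peaks on sequences named for alternate copies of chromosome 6. The part of read placement in the empty stretch was not tested.

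Protein-coding genes surrounded 18 of the 133 genes (13.5%) and 31 of the 310 others (10.0%). No strand is given for the peaks, so a summit in such a tRNA gene cannot be told apart from one of the surrounding transcript.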

How the data were processed

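Per genotype, RPL22-HaloTag and RPL22L1-HaloTag, 1 library with 1 peak list was used. The authors deposited for each peak a position, a whole-number score with unstated scale and a summit offset, counted in bases from where the peak begins, with no strand. The submitters' processing notes name cutadapt 4.8, STAR 2.7.10a, UMI-tools 1.1.5, MACS3 3.0.0a6 and build hg38, with no roles. Peak settings, any control and the treatment of reads with several matches are not given in the sources used here, and read depth is unknown.

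Summits were assigned to RefSeq genes of GRCh38.p14 by position, with Python 3.11.15, pandas 2.3.3, numpy 2.4.6 and scipy 1.17.1. Deposited scores served only to rank peaks within a list, tied scores sharing the better rank. Shares carry exact Clopper-Pearson 95% intervals. The members and lists were chosen with earlier results of these data known. Genes were named by a rule: in each list the 10 highest and the 5 highest found there only, the 5 largest percentile differences each way, all initiator methionine and selenocysteine genes, 3 genes on each side of the threshold, and the 3 highest of each pathway list. The other arginine, lysine, proline, glutamine, threonine and leucine genes, and those printed or placed by position, were named after their values were seen. Promoter sequences are from RefSeq. The code that assigns summits by position was run on simulated summits placed in the RPL22 library: 60 of 60 were recovered over 443 genes and 0 were added wrongly. This checks the code only and cannot show which copy of a family gave the reads. Alternatives were a score minimum, no flat peaks, equal list lengths, overlap of a peak with the gene, wider bounds and nested genes.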

Additional observations from a re-analysis of the deposited data

How the results depend on the processing

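Counting a gene when at least 1 base of a peak lay in it moved the number of tRNA genes to 204 in the RPL22 library and 239 in the RPL22L1 library, with 189 in both, or 74.41%. Bounds widened by 20 bases gave 206 and 234, with 185 in both, or 72.55%. Requiring peaks that overlap by at least 50% lowered the share in both to 45.86%. The median percentile became 97.809 with a score of at least 100 and 99.097 without flat peaks in the RPL22 library, and 98.612 without flat peaks in the RPL22L1 library. Of the alternative values of the main counts and shares, 54 stayed within their limits and these 12 moved. Among single named genes 550 stayed and 48 moved. The share of summits on the 3′ side was computed only for genes with a known strand. No paired analysis was possible because the labels carry no replicate numbers and each group has 1 library. Read depth is unknown, so absence from a list is no absence of binding, and each value rests on 1 library.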

Other observations

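Of 22 mitochondrial tRNA genes, which are transcribed from the mitochondrial genome as part of long RNAs and lie outside the set, 1 had a summit in the RPL22 library and 5 in the RPL22L1 library. Among the 443 nuclear tRNA genes the counts were 109 (24.6%) and 102 (23%). Nuclear tRNA genes of 85 bases or more, a length reached mostly by genes with an intron, numbered 29, of which 10 had a summit in either library. Over all nuclear tRNA genes it was 133 of 443, or 30%, so these longer genes are not set apart. Identical copies with strand known gave both outcomes: TRH-GTG1-3 and TRH-GTG1-9 are the same over 72 bases, and only TRH-GTG1-9 had a summit within 20 bases, 13 bases past its end in the RPL22L1 library at rank 569. TRG-CCC2-1 and TRG-CCC2-2 are the same over the 53 bases compared and both had summits, at ranks 4333 and 183 in the RPL22 library. TRN-GTT4-1 and TRN-GTT6-1 differ at 3 of 74 bases, and only the former had a summit within 20 bases.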
